A study of Mus musculus with 6 samples.

Results

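Serine is made inside cells from the glycolytic intermediate 3-phosphoglycerate, and its side chain carbon is passed to folate to feed purine, thymidylate and methionine synthesis. The 9 genes described here encode enzymes of that route. Phgdh, Psat1 and Psph make serine. Shmt1 and Shmt2 split serine into glycine and a folate-bound carbon, in the cytosol and in mitochondria respectively. Mthfd1, Mthfd1l, Mthfd2 and Aldh1l2 carry that carbon through the oxidation states of folate. The genes were chosen by name, with their FPKM (mapped fragments scaled to transcript length and library size) in the present comparison already known. Their values in that comparison are therefore given as a description. A count of members past the threshold used for all genes is printed for orientation, and nothing is read from it. All 9 names were found among the 55401 genes of the deposited table, and 8 of the 9 reached the level required for testing, 0.5 FPKM in at least 3 of 6 libraries, which 12084 genes reached in all.

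The cells were mouse bone-marrow-derived macrophages (BMDM), flushed from tibia and femur and grown for 7 days with 10% L929-conditioned medium, a source of macrophage growth factor. In the L-OHP group, 3 samples received the platinum drug L-OHP (oxaliplatin) at 5 µM for 12 h. In the L-OHP+FUC group, 3 samples were first given 250 µg/ml of the brown-algal sulphated polysaccharide fucoidan for 12 h, and then the same L-OHP exposure. Both groups thus carried the drug, and the comparison asks what fucoidan pretreatment changed in drug-exposed cells. Samples of untreated macrophages or of fucoidan alone were not analysed here. The labels give no strain, sex or age for the mice, and do not say whether replicates came from separate animals or cultures, so errors and p-values reflect only how far these samples differ from one another, possibly for technical reasons.

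In macrophages the serine and one-carbon enzymes are known to supply glycine for glutathione and one-carbon units for nucleotides and for methylation during activation. The mitochondrial branch, run by Shmt2, Mthfd2 and Mthfd1l, releases formate, which the cytosolic enzyme Mthfd1 can take up again. The transcription factor ATF4, the effector of the integrated stress response, is known to activate several of these genes, and NRF2 and MYC are known as further regulators.

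Fucoidan-pretreated cells held more mRNA of 7 of the 9 enzymes in every library than any library given L-OHP alone. The largest ratios were for Phgdh (2.44-fold), Shmt2 (1.91-fold) and Psat1 (1.64-fold). Shmt1, the cytosolic counterpart of Shmt2, was lower in every L-OHP+FUC library, 1.96-fold in the means. Aldh1l2 was near 0 in both groups. Among all tested genes, 16.1% were higher in every L-OHP+FUC library and 30.9% were lower in every one. In bulk RNA, fewer cells of a type and less RNA per cell cannot be told apart.

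**Figure D1:**
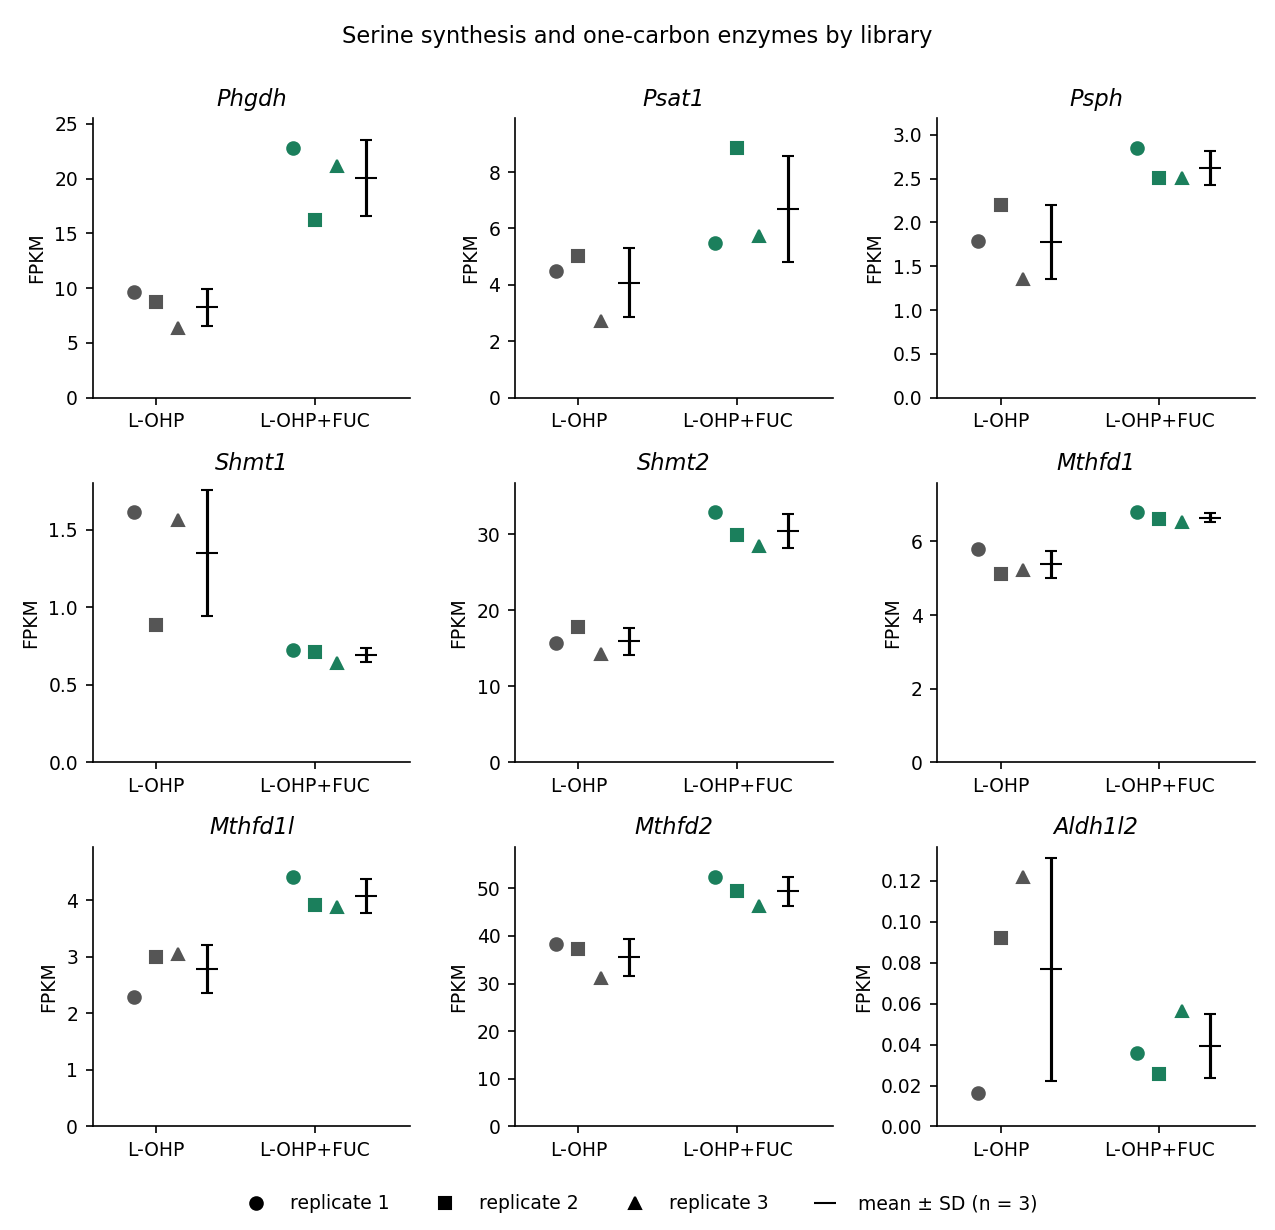
FPKM of the 9 enzymes in each of the 6 libraries, 1 panel per gene, with symbols for replicates and the mean ± SD of 3 libraries beside them. The points of the 2 groups do not overlap for 8 genes, 7 with L-OHP+FUC above and Shmt1 with it below, and they overlap for Aldh1l2.

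The promoters are shown because 7 of these genes were higher together and Shmt1 was not, so their sequences can be compared directly. A RefSeq start (GRCm38.p6) was found for 8 of the 9 members. The 250 bases before it are printed 5′ to 3′ on the gene's strand for the 2 serine synthesis genes with the largest ratios, the Shmt pair and Mthfd2. For Psat1, which has 2 annotated starts, the upstream window is the one shown. A RefSeq start need not be the end of the gene as located by GENCODE M21. The Psat1, Shmt1 and Mthfd2 windows lie inside the GENCODE positions given for these genes below. Capitals mark a CCAAT box (CCAAT, or ATTGG on the other strand) or, in Phgdh, the letters of an antioxidant response element (TGACNNNGC).
Phgdh, chr3:98339970-98340219, minus strand: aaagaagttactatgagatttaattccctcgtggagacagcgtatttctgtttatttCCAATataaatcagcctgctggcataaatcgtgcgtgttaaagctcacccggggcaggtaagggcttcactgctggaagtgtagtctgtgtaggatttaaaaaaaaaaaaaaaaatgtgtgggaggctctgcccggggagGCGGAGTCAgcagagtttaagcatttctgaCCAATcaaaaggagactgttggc
Psat1, chr19:15925060-15925309, minus strand: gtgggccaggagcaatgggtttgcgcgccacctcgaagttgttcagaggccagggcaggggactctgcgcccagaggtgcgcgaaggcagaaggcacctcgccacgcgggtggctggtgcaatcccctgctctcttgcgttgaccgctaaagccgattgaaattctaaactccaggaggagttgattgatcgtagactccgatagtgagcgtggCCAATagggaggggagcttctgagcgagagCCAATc
Shmt2, chr10:127522445-127522694, minus strand: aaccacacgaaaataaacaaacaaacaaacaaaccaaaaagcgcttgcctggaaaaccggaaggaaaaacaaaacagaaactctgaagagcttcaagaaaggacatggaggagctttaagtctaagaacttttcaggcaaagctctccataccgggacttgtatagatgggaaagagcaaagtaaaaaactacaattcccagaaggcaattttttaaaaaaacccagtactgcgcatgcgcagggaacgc
Shmt1, chr11:60811266-60811515, minus strand: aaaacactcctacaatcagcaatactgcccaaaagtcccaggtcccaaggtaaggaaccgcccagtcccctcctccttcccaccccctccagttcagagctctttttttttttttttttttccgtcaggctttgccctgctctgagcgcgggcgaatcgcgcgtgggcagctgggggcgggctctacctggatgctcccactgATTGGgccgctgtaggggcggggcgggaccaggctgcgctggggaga
Mthfd2, chr6:83317605-83317854, minus strand: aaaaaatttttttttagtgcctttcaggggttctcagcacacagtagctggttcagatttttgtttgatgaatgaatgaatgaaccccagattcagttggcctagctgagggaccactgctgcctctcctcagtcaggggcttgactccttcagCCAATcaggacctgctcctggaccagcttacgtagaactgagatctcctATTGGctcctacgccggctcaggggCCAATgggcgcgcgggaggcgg

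The windows of these 8 members were searched on both strands for the letters of the motifs below, and no match overlapped another. CCAAT, the box read by NF-Y, was found in 6 members (Phgdh, Psat1, Psph, Shmt1, Mthfd1 and Mthfd2) and in 33.8% of the 32851 mouse promoter windows of the same length. Shmt1, which was lower, held 1 such box 47 bases before its start, and Shmt2, which was higher, held none. The antioxidant response element, the site read by NRF2, was matched in Phgdh only, as GCGGAGTCA on the minus strand 53 bases before the start, and in 10.2% of all windows. TGATGNAA, the CARE read by ATF4, was in 3.45% of all windows and in none of the members' windows. CACGTG, the E-box read by MYC, was in 6.02% of all windows and in none of the members'. A match is a description of letters, not of a site in use. Motifs found in 3.45% or 6.02% of all windows would often be absent from so few windows, so nothing is read from their absence. Bases beyond the 250 before each start were not searched.

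Phgdh, 3-phosphoglycerate dehydrogenase, catalyses the first and committed step of serine synthesis. It lies at chr3:98313170-98339990 on the minus strand (GENCODE M21, GRCm38, as for all genes named with a position). Phgdh was at 9.61, 8.71 and 6.39 FPKM with L-OHP and at 22.8, 16.2 and 21.2 FPKM with L-OHP+FUC. The lowest L-OHP+FUC library was thus above the highest L-OHP library, and L-OHP+FUC replicate 2 was the low one of its group. The means were 8.24 ± 1.66 and 20.1 ± 3.46 FPKM (SD, n = 3), a difference of 1.19 ± 0.18 (SE) on the log2(FPKM + 1) scale. Phgdh ranked 46 from the top of the 12084 tested genes by that difference. It was also the only member that the authors' deposited table marks as significant, a mark that table gives to genes with an unadjusted p under 0.05 and a fold of at least 2.

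Psat1, phosphoserine aminotransferase, performs the next step (chr19:15904678-15947337, minus strand). Its values were 4.48, 5.04 and 2.72 FPKM with L-OHP and 5.47, 8.85 and 5.74 FPKM with L-OHP+FUC. The groups did not overlap, but the gap between them was narrow. L-OHP+FUC replicate 2, the lowest of its group for Phgdh, was the highest for Psat1. The means were 4.08 ± 1.21 and 6.68 ± 1.88 FPKM, a log2 difference of 0.60 ± 0.23, the largest SE among the members. Without L-OHP replicate 3 the difference was 0.39.

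Psph, phosphoserine phosphatase, releases free serine (chr5:129765558-129787449, minus strand). It was at 1.79, 2.2 and 1.35 FPKM with L-OHP and at 2.85, 2.51 and 2.51 FPKM with L-OHP+FUC. All 3 pretreated libraries were above the 3 others, and the means were 1.78 ± 0.422 and 2.62 ± 0.195 FPKM (log2 difference 0.39 ± 0.13, or 0.61 after quantile normalization). Cct6a, a chaperonin subunit gene on the other strand, overlaps Psph and stood at 28.8 ± 2.28 and 34.6 ± 0.114 FPKM. Use of strand in the counting is not given in the sources used here, so reads of overlapping genes on opposite strands may not have been told apart.

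Summed over the serine synthesis enzymes, the level was 15.9, 16 and 10.5 FPKM with L-OHP and 31.1, 27.6 and 29.5 FPKM with L-OHP+FUC. Most of it was Phgdh in every library. The 3 genes did not move by the same ratio. Phgdh relative to Psph was 4.69 ± 0.703 after the drug alone and 7.65 ± 1.06 in pretreated cells, with no overlap. Phgdh relative to Psat1 overlapped, at 2.14, 1.73 and 2.35 after the drug alone and 4.17, 1.83 and 3.7 in pretreated cells, the low value being L-OHP+FUC replicate 2.

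Shmt2, mitochondrial serine hydroxymethyltransferase, transfers the serine carbon to tetrahydrofolate (chr10:127517123-127522444, minus strand). Shmt2 was at 15.7, 17.8 and 14.3 FPKM with L-OHP and at 32.9, 29.9 and 28.5 FPKM with L-OHP+FUC. Every pretreated library was well above the other group, and the spread within each group was small beside the gap. The means were 15.9 ± 1.77 and 30.4 ± 2.25 FPKM, a log2 difference of 0.90 ± 0.11, rank 89 from the top. Ndufa4l2, a gene of the other strand that overlaps Shmt2, was at most 0.341 FPKM in any library.

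Shmt1 performs the same reaction in the cytosol (chr11:60788104-60811718, minus strand). Its values were 1.61, 0.883 and 1.56 FPKM with L-OHP and 0.721, 0.707 and 0.64 FPKM with L-OHP+FUC. The pretreated libraries lay close together and below the others, and L-OHP replicate 2 was nearer to them than to its own group. The means were 1.35 ± 0.405 and 0.689 ± 0.0428 FPKM, a log2 difference of -0.46 ± 0.14. That difference was -0.22 after quantile normalization and -0.84 with a pseudocount of 0.1 in place of 1. Smcr8, an autophagy regulator gene that overlaps Shmt1 on the opposite strand, was itself lower, at 29.4 ± 1.87 and 22.6 ± 1.77 FPKM. The part of Smcr8 reads in the Shmt1 value was not tested.

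The Shmt pair went in opposite directions, and the balance between them shifted further than that of the other pairs compared here. The ratio of Shmt2 to Shmt1 was 9.79, 20.1 and 9.14 in the L-OHP libraries and 45.7, 42.3 and 44.5 in the L-OHP+FUC libraries. The high L-OHP value is that of replicate 2, where Shmt1 was low, and it was still below every pretreated library. By the depth implied by the values, Shmt1 was at 30 to 76.3 fragments per library, so this ratio rests on a low denominator.

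**Figure D2:**
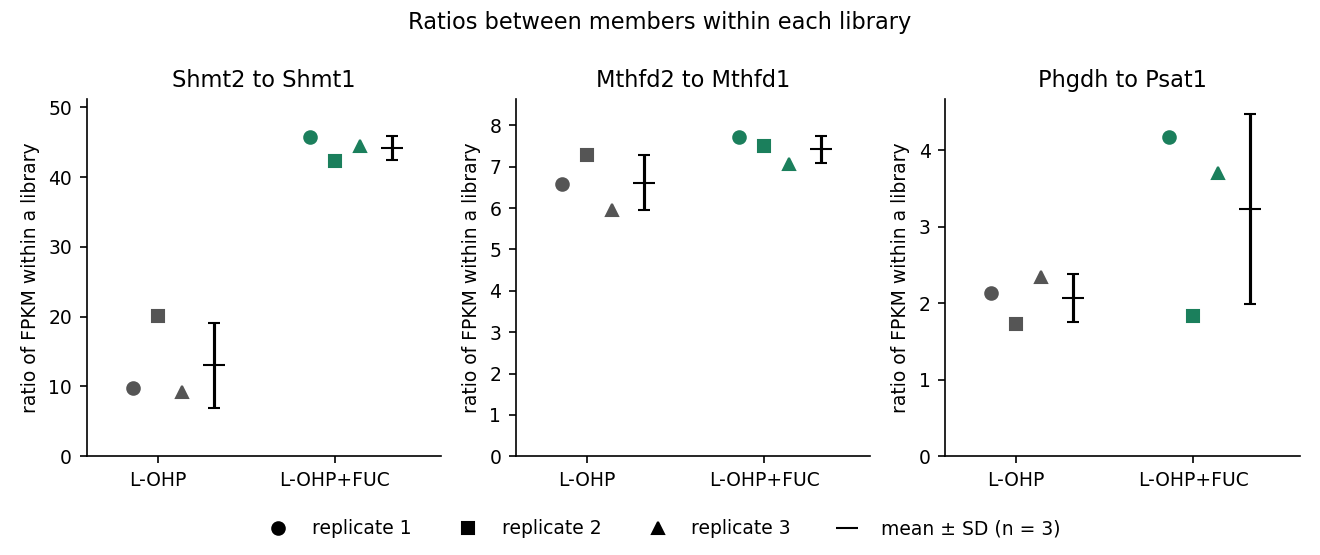
Ratios of FPKM between members within each library for Shmt2 to Shmt1, Mthfd2 to Mthfd1 and Phgdh to Psat1, with symbols for replicates and the mean ± SD of 3 libraries. The Shmt2 to Shmt1 ratio lies between 42.3 and 45.7 in the L-OHP+FUC libraries and at 20.1 or below in the L-OHP libraries, while the other ratios overlap between groups.

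Mthfd2, the mitochondrial methylenetetrahydrofolate dehydrogenase and cyclohydrolase, was the most abundant member (chr6:83305691-83325908, minus strand). It was at 38.2, 37.2 and 31.1 FPKM with L-OHP and at 52.4, 49.5 and 46.2 FPKM with L-OHP+FUC. The groups were apart, with means of 35.5 ± 3.85 and 49.4 ± 3.08 FPKM and a log2 difference of 0.47 ± 0.11. Gm43890, an unconfirmed transcript on the same strand within the locus, was at or below 0.755 FPKM in every library.

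Mthfd1l, the mitochondrial ligase that frees formate from folate (chr10:3973118-4167081, plus strand), was at 2.29, 3 and 3.04 FPKM with L-OHP and at 4.41, 3.91 and 3.88 FPKM with L-OHP+FUC. Its means were 2.78 ± 0.42 and 4.07 ± 0.299 FPKM, a log2 difference of 0.43 ± 0.11. Replicate 1 was the lowest library of the L-OHP group and the highest of the other. Mthfd1, the cytosolic enzyme with 3 folate activities (chr12:76255298-76319803, plus strand), was at 5.8, 5.11 and 5.22 FPKM with L-OHP and at 6.79, 6.61 and 6.54 FPKM with L-OHP+FUC. Mthfd1 had the smallest difference of the members that were higher, 0.26 ± 0.08 (0.40 after quantile normalization), with means of 5.38 ± 0.369 and 6.64 ± 0.131 FPKM. It was also the steadiest between replicates of the pretreated group, with a coefficient of variation of 1.97%.

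Aldh1l2, the mitochondrial enzyme that oxidises 10-formyltetrahydrofolate to carbon dioxide (chr10:83487450-83534140, minus strand), was at 0.0162, 0.0922 and 0.122 FPKM with L-OHP and 0.0358, 0.0255 and 0.0563 FPKM with L-OHP+FUC. The groups overlapped, and by the depth implied by the values these levels correspond to between 1.62 and 12.2 fragments per library. No difference was detectable at this depth.

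Grouped by compartment, the mitochondrial enzymes together were at 56.3, 58.1 and 48.5 FPKM with L-OHP and at 89.7, 83.3 and 78.7 FPKM with L-OHP+FUC, with no overlap. The cytosolic pair Shmt1 and Mthfd1 together was at 7.4, 5.99 and 6.78 FPKM and at 7.51, 7.31 and 7.18 FPKM, and these overlapped. Most of the mitochondrial sum was Mthfd2, and most of the cytosolic sum was Mthfd1. Mthfd2 relative to Mthfd1 was 6.61 ± 0.665 and 7.42 ± 0.326, with overlap, whereas Mthfd1l relative to Mthfd1 was 0.522 ± 0.109 and 0.612 ± 0.033, narrowly without.

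In order of level with L-OHP alone, Mthfd2 was followed by Shmt2, Phgdh, Mthfd1, Psat1, Mthfd1l, Psph, Shmt1 and Aldh1l2. The ranges of Psat1 and Mthfd1l overlapped, as did those of Psph and Shmt1, and all other neighbours were apart. In the L-OHP+FUC group Psat1 and Mthfd1 had nearly equal means and overlapping ranges, and the rest of the order was the same with no overlap between neighbours. Phgdh was above 63.4% of the tested genes with L-OHP and above 82.9% with L-OHP+FUC. Shmt1 was above 16.5% and 10.9% respectively.

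Among the 8 tested members the median log2 difference was 0.45, against -0.10 over all 12084 tested genes. Past an adjusted p of 0.05 in limma (Benjamini-Hochberg) were 4 members as higher (Phgdh, Shmt2, Mthfd2 and Mthfd1l). Over all tested genes 27.0% were past it, 7.67% as higher and 19.3% as lower. Because the members were chosen on this contrast, nothing is read from that count. Without L-OHP+FUC replicate 1 or replicate 2 the count was 2, Phgdh and Shmt2, and without L-OHP replicate 2 it was 6, with Psph as higher and Shmt1 as lower added.

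**Figure D3:**
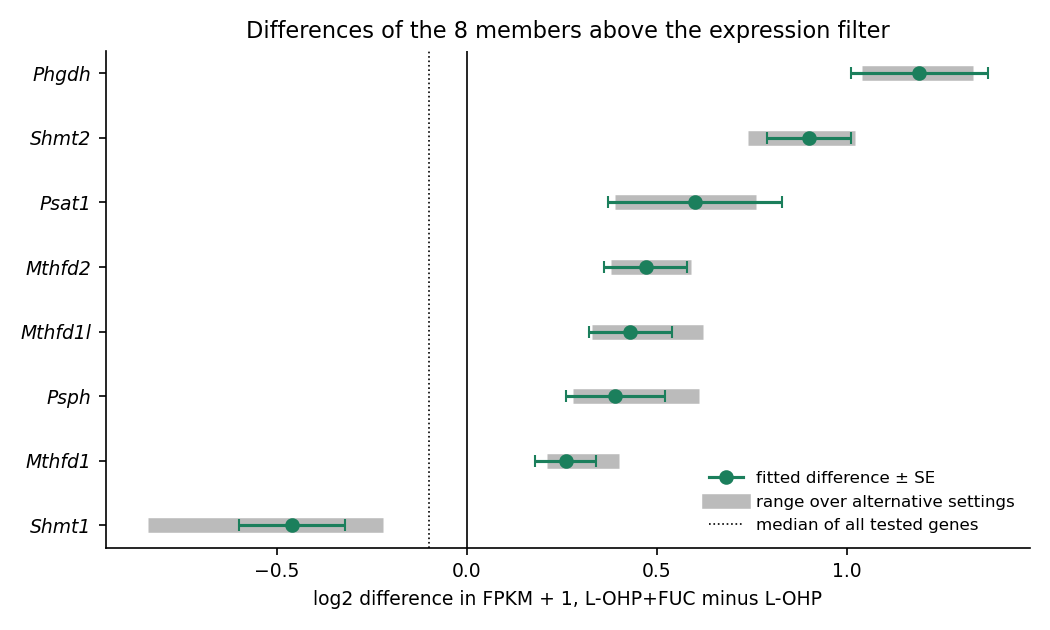
Fitted log2 difference in FPKM + 1 (L-OHP+FUC minus L-OHP) ± SE for the 8 members above the expression filter, with a grey bar for the range over the alternative settings and a dotted line at the median of all tested genes, -0.10. Phgdh ranges from 1.04 to 1.33, Shmt2 from 0.74 to 1.02 and Shmt1 from -0.84 to -0.22.

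The libraries as a whole differed in ways that touch these values. The low values imply 15.8 to 18.7 M fragments per library, or a multiple of that. Genes at 1 FPKM or more numbered 10711 to 10813 with L-OHP and 9841 to 10188 with L-OHP+FUC, and 2335 genes were called lower against 927 higher. Rescaling by the median ratio of genes gave 1581 higher and 1680 lower, quantile normalization gave 1565 and 1359, and a GC and length correction gave 1390 and 1437. The median over all genes moved from -0.10 to between -0.01 and 0.03 under these settings. Of the 3262 genes called in all, the number was down to 1402 with L-OHP replicate 1 left out. Leaving out L-OHP+FUC replicate 1 gave 1224, and leaving out L-OHP+FUC replicate 2 gave 1101.

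All 10 macrophage markers reached the tested level. Their summed level, most of it Lyz2 (13211 ± 2801 and 11190 ± 545 FPKM), was 12650 to 18023 FPKM with L-OHP and 13605 to 14597 FPKM with L-OHP+FUC. Of the 10, Csf1r rose (418 ± 26.3 to 578 ± 43.3 FPKM, adjusted p = 0.0233), while Fcgr1 (146 ± 32.1 to 89 ± 5.11 FPKM, adjusted p = 0.0268) and Mertk (50.5 ± 2.82 to 29.9 ± 0.775 FPKM, adjusted p = 0.00432) fell. The summed neutrophil markers were at 8.07 to 12.8 and 14.7 to 17.6 FPKM, with 3 of 10 tested, S100a8 higher (adjusted p = 0.0162), and Ly6g and Retnlg at 0 throughout. The B cell markers were at 17.4 to 26.1 and 10.5 to 13.7 FPKM with 2 of 6 tested, most of it Ighm (19.3 ± 4.68 to 10.9 ± 1.5 FPKM), which fell (adjusted p = 0.0232), as did Cd79b (0.0258). The T cell markers were at 4 to 5.89 and 2.4 to 2.84 FPKM, most of it Cd4 (4.73 ± 0.983 to 2.17 ± 0.228 FPKM), which fell (adjusted p = 0.0111), with Cd3e, Cd3d and Cd3g at 0. The mast cell and megakaryocyte markers were at 16.4 to 20.9 and 30.4 to 34.3 FPKM, most of it Pf4 (18.4 ± 2.35 to 31 ± 2 FPKM), the 1 of 6 tested, which rose (adjusted p = 0.00888). Fibroblast markers were at 5.25 to 12.5 and 8.13 to 8.59 FPKM, and erythroid and dendritic cell markers summed to at most 1.06 FPKM. The part of these cells in the members' values was not tested.

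Across the 6 libraries, the Pearson correlation with Phgdh in log2(FPKM + 1) was 0.96 for Shmt2, 0.95 for Mthfd2, 0.94 for Mthfd1, 0.90 for Psph, 0.80 for Mthfd1l, 0.69 for Psat1, -0.61 for Aldh1l2 and -0.82 for Shmt1. These values share libraries and hold the difference between groups, and are given as a description. Of the 5909 other genes with a mean of at least 5 FPKM, 483 had a correlation of at least 0.9. The 5 most like Phgdh were the zinc transporter gene Slc39a4 (0.9969), Eml2 (0.9944), the NAD kinase gene Nadk (0.9896), Ppp1r11 (0.9880) and Lrrc75a (0.9856). Slc39a4 was at 3.98, 3.98 and 3.24 FPKM with L-OHP and at 7.63, 6.1 and 7.16 FPKM with L-OHP+FUC, low in the same library of each group as Phgdh.

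The genes around the members were taken from 9 lists of connected pathways with 154 genes, 122 of them tested. Among these, 30 rose, 14 fell and 78 did not pass. That is 24.6% higher and 11.5% lower, with a median log2 difference of 0.10, beside 7.67% higher, 19.3% lower and a median of -0.10 over all tested genes. These shares over all genes are also the background for each list described next. They belong to the adjusted threshold. At an unadjusted p under 0.05 the shares over all genes are at least as large and were not counted, so nothing is read from list counts at that level. The count past the threshold was 44, and it was 25 without L-OHP replicate 1, 23 without L-OHP+FUC replicate 1 and 20 without L-OHP+FUC replicate 2. With median-ratio rescaling 37 of these genes were called higher and 13 lower, beside 1581 higher and 1680 lower over all tested genes. The lists were chosen with earlier results of these data known, so their counts and shares are a description. The lists differed in which way their genes went.

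**Figure D4:**
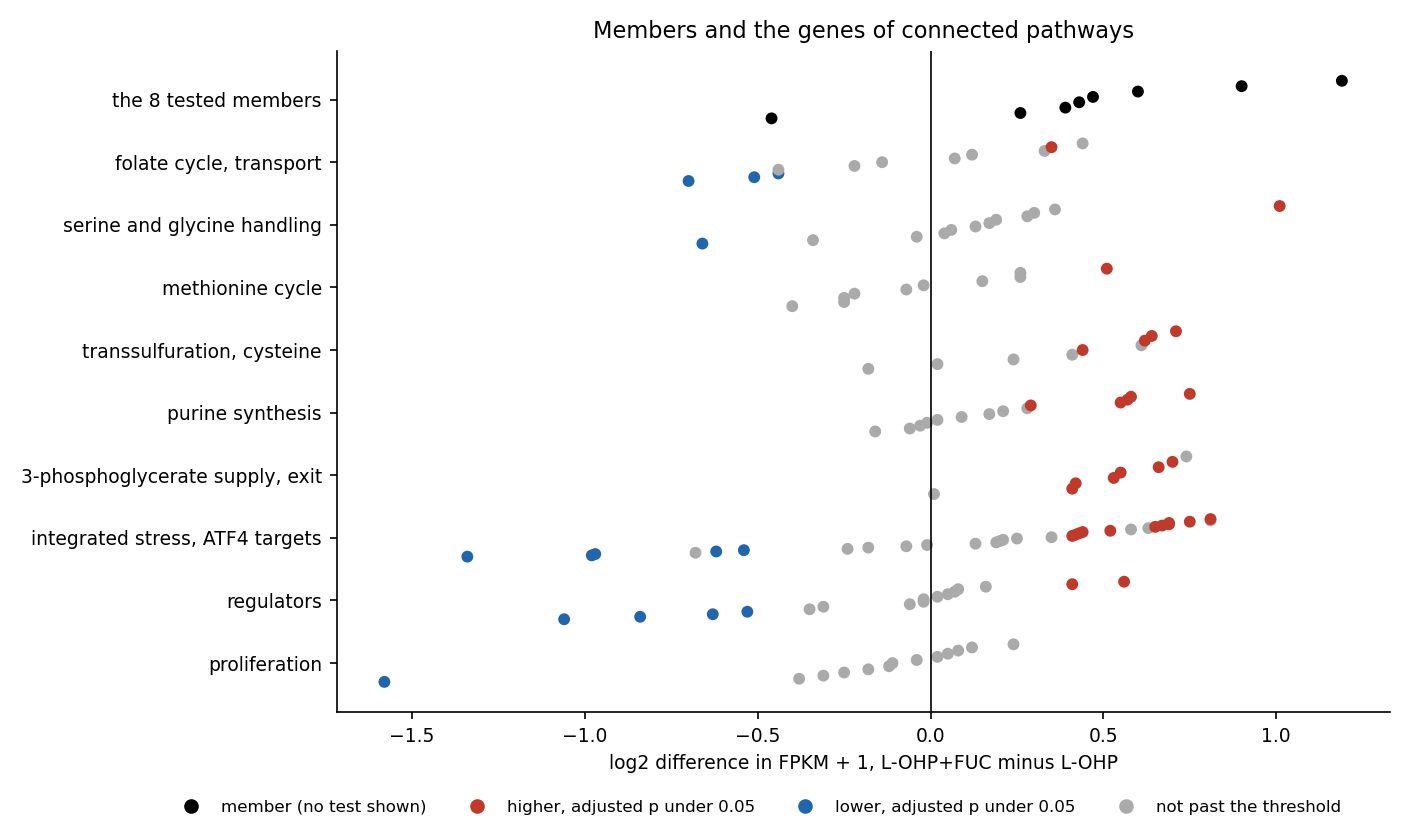
Log2 difference in FPKM + 1 (L-OHP+FUC minus L-OHP) of the 8 tested members and of each tested gene of 9 connected lists, 1 point per gene, coloured by the limma call except for the members. Red points (higher) are in every list but proliferation, and blue points (lower) are in the folate, serine and glycine, integrated stress, regulator and proliferation lists.

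In glycolysis around 3-phosphoglycerate, the substrate of Phgdh, 6 of 8 tested genes rose in limma and 0 fell, nor did any at an unadjusted p under 0.05, with a median of 0.54. Eno1, enolase, went from 51.8 ± 3.95 to 84.5 ± 5.8 FPKM (log2 difference 0.70, adjusted p = 0.00709). Aldolase Aldoa (0.66, adjusted p = 0.0104), phosphoglycerate kinase Pgk1 (0.53, adjusted p = 0.0132), which makes 3-phosphoglycerate, and phosphoglycerate mutase Pgam1 (0.55, adjusted p = 0.0119), which takes it onward, rose as well. With L-OHP+FUC replicate 2 left out, Aldoa, Pgk1 and Pgam1 no longer passed (adjusted p = 0.0524, 0.0626 and 0.0569).

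In the rest of the folate cycle, 1 of 11 tested genes rose and 3 fell, with a median of -0.14. Mtfmt, which formylates the mitochondrial initiator methionine, fell from 2.27 ± 0.215 to 1.29 ± 0.116 FPKM (-0.51, adjusted p = 0.0138, and 0.0532 without L-OHP+FUC replicate 1). After quantile normalization Mtfmt was at -0.29 and did not pass (adjusted p = 0.0707), and with a pseudocount of 0.1 it was at -0.77. Aldh1l1, the cytosolic relative of Aldh1l2, fell by 0.44 (adjusted p = 0.0419). Omitting any library but L-OHP replicate 3 ended its call (adjusted p = 0.0807 to 0.128). The call was also lost without the filter on low values (0.0948), after median-ratio rescaling (-0.34, adjusted p = 0.0866) and after quantile normalization (-0.23, adjusted p = 0.251). The folate transporter gene Slc46a1 rose by 0.35 (adjusted p = 0.0473). Omitting any library but L-OHP+FUC replicate 3 ended its call (adjusted p = 0.0587 to 0.14). So did testing without the filter (0.0985) and with the GC and length correction (0.20, adjusted p = 0.0949), and quantile normalization gave 0.55. The mitochondrial folate carrier gene Slc25a32 was at 3.85 ± 0.546 and 2.59 ± 0.553 FPKM (adjusted p = 0.0618, and 0.0331 without L-OHP+FUC replicate 3). Mthfd2l, the close relative of Mthfd2, was at 0.413 ± 0.0621 and 0.537 ± 0.0796 FPKM and was below the level for testing.

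Among 12 tested genes of serine transport, serine breakdown and glycine cleavage, 1 rose and 1 fell, with a median of 0.15. Slc6a9, the glycine transporter GlyT1, was at 1.35, 2.35 and 1.22 FPKM with L-OHP and 3.99, 3.87 and 4.92 FPKM with L-OHP+FUC (1.01, adjusted p = 0.0113). Slc38a2, a carrier of small neutral amino acids that includes serine, fell from 22.3 ± 0.275 to 13.8 ± 0.745 FPKM (-0.66, adjusted p = 0.00499). The GC and length correction took this to -0.39, and with the replicate block added it did not pass (adjusted p = 0.051). Sfxn1, the mitochondrial serine carrier, was at 2.13 ± 0.218 and 2.55 ± 0.113 FPKM and did not pass (adjusted p = 0.179). Quantile normalization (adjusted p = 0.0202) and correction for GC and length (0.0155) each brought it past the threshold. Gldc, the glycine decarboxylase of the cleavage system, was at or below 0.0245 FPKM in every library.

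In the methionine cycle, 1 of 10 tested genes rose in limma and 0 fell (3 and 1 at an unadjusted p under 0.05), with a median of -0.04. Ahcy, which clears S-adenosylhomocysteine, went from 7.18 ± 0.773 to 10.6 ± 0.678 FPKM (0.51, adjusted p = 0.0155). Its call was lost without L-OHP replicate 1 (adjusted p = 0.0558) or L-OHP+FUC replicate 1 (0.0594). Mat2a, which makes S-adenosylmethionine, was at 26, 19.5 and 36 FPKM with L-OHP and 18.4, 20.4 and 20.2 FPKM with L-OHP+FUC. These overlapped (adjusted p = 0.18), and without L-OHP replicate 2 Mat2a passed as lower (adjusted p = 0.0315). Pemt, which uses S-adenosylmethionine to make phosphatidylcholine, was at 0.431 ± 0.0343 and 0.714 ± 0.0499 FPKM (adjusted p = 0.0702). Median-ratio rescaling (0.0458) or quantile normalization (0.014) brought Pemt past the threshold.

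In cysteine and glutathione metabolism, which draws on serine and glycine, 4 of 9 tested genes rose in limma and 0 fell (4 and 0 at an unadjusted p under 0.05), with a median of 0.44. Gss, glutathione synthetase, the step that adds glycine, went from 3.88 ± 0.622 to 6.99 ± 0.715 FPKM (0.71, adjusted p = 0.0118). Sqor, the sulfide oxidase of mitochondria, went from 13.5 ± 0.987 to 21.5 ± 0.42 FPKM (0.64, adjusted p = 0.00639). Gclc, which starts glutathione synthesis, rose by 0.44 (adjusted p = 0.0293), a call lost without L-OHP replicate 1, L-OHP+FUC replicate 2 or L-OHP+FUC replicate 3 (adjusted p = 0.0705 to 0.102) and without the filter (0.0573). The cystine importer gene Slc7a11 rose by 0.62 (adjusted p = 0.0484), a call lost on omitting any library but L-OHP replicate 2 (0.0571 to 0.128), without the filter (0.109) and without the intensity trend (0.0505). With the GC and length correction Slc7a11 was at 1.13 (adjusted p = 0.00703).

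In purine synthesis, the main user of formyl-folate, 5 of 14 tested genes rose in limma and 0 fell (6 and 0 at an unadjusted p under 0.05), with a median of 0.19. Atic, which uses 10-formyltetrahydrofolate in the last steps to inosine monophosphate, was at 5.72, 5.8 and 6.29 FPKM with L-OHP and 10.8, 10.4 and 10.8 FPKM with L-OHP+FUC (0.75, adjusted p = 0.00432). Impdh1, which leads toward guanine nucleotides, went from 3.26 ± 0.29 to 5.38 ± 0.286 FPKM. Its difference was 0.58 (adjusted p = 0.0095), or 0.41 with the GC and length correction. Its paralog Impdh2 rose by 0.57 (adjusted p = 0.0325) and the adenylosuccinate synthase gene Adssl1 by 0.55 (adjusted p = 0.0331). Both of these calls were lost without any 1 of the L-OHP+FUC libraries, Impdh2 also without L-OHP replicate 3 (adjusted p = 0.0563 to 0.103) and Adssl1 also without L-OHP replicate 1 (0.0625 to 0.11). Without the filter neither passed (0.0732 and 0.0739), nor did Adssl1 with the GC and length correction (0.0938).

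Among the integrated stress response genes, 11 of 30 tested rose and 5 fell, with a median of 0.30. Asns, asparagine synthetase, was at 23.1, 22.8 and 24.2 FPKM with L-OHP and at 41.7, 41.9 and 41.9 FPKM with L-OHP+FUC (0.81, adjusted p = 0.00339). Gars, glycyl-tRNA synthetase, went from 37.3 ± 1.47 to 59.7 ± 1.3 FPKM (0.67, adjusted p = 0.00466), and the transcription factor gene Atf5 from 76.9 ± 3.9 to 130 ± 11.3 FPKM (0.75, adjusted p = 0.00631). Ddit3, which encodes the stress factor CHOP, moved the other way, from 70.5 ± 11.3 to 35 ± 1.22 FPKM (-0.98, adjusted p = 0.00631). So did Nupr1 (-0.97, adjusted p = 0.0237), Cebpg (-0.62, adjusted p = 0.00907) and the kinase genes Eif2ak2 (-1.34, adjusted p = 0.00695) and Eif2ak4 (-0.54, adjusted p = 0.0283). The GC and length correction took Atf5 to 0.57 and Ddit3 to -0.73, and both still passed. Atf4 mRNA itself was at 168, 152 and 91.9 FPKM with L-OHP and 171, 143 and 161 FPKM with L-OHP+FUC, with overlap (adjusted p = 0.443). Its difference of 0.25 became -0.02 without L-OHP replicate 3. Atf3 was at 151 ± 9.59 and 175 ± 7.48 FPKM (adjusted p = 0.127, and 0.0387 after median-ratio rescaling).

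Of 16 tested genes listed as regulators for the serine pathway, 2 rose and 4 fell, with a median of -0.02. The 2 that rose were Myc and Pkm, and Pkm is also counted in the glycolysis list. Myc went from 1.51 ± 0.23 to 2.71 ± 0.313 FPKM (0.56, adjusted p = 0.0166, and 0.0668 without L-OHP+FUC replicate 2). The histone methyltransferase gene Kmt2a fell from 8.21 ± 0.548 to 3.47 ± 0.763 FPKM (-1.06, adjusted p = 0.00616). The GC and length correction took this to -0.65, and with the replicate block added it did not pass (adjusted p = 0.0505). The p53 inhibitor gene Mdm2 fell from 35.7 ± 2.91 to 19.5 ± 2.49 FPKM (-0.84, adjusted p = 0.00695). The histone demethylase gene Kdm4c fell by 0.63 (adjusted p = 0.0125, and 0.0501 without L-OHP+FUC replicate 2), or by 0.41 with the GC and length correction, which did not pass with the block (0.056). Nfe2l2, which encodes NRF2, was at 95.1 ± 13.6 and 76.2 ± 8.32 FPKM with overlap (adjusted p = 0.134), and passed as lower without L-OHP replicate 2 (0.0384).

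Of 13 tested proliferation genes, 0 rose and 1 fell in limma (0 and 3 at an unadjusted p under 0.05), with a median of -0.11. Mki67, a marker of cycling cells, was at 3.53, 3.76 and 2.81 FPKM with L-OHP and at 0.146, 0.657 and 0.618 FPKM with L-OHP+FUC (-1.58, adjusted p = 0.00432). Its difference was -2.75 with a pseudocount of 0.1, -1.37 after quantile normalization and -1.22 with the GC and length correction. Mcm7, a subunit of the replicative helicase, was at 2.37 ± 0.148 and 1.73 ± 0.31 FPKM (adjusted p = 0.0783, and 0.0388 when corrected for GC and length). The summed level of the list was 114 ± 4.11 and 104 ± 4.89 FPKM. Most of it was Pcna, at 79.1 ± 4.24 and 73.1 ± 3.11 FPKM, which did not pass in limma (adjusted p = 0.357).

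The pathway annotation in the deposited table was used as a second listing. In its KEGG glycine, serine and threonine pathway, 5 of 16 tested genes other than the members rose and 3 fell, with a median of 0.03. In its KEGG one carbon pool by folate, 2 of 8 tested genes other than the members rose and 4 fell, with a median of -0.34. Over all tested genes the median was -0.10.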

How the data were processed

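Ribosome-depleted total RNA of 6 BMDM samples was sequenced after random priming, per the labels' protocols. The submitters' processing notes name HISAT2, StringTie, DESeq2, limma, bcl2fastq 2.0 and the build mm10 without their roles. For the annotation release and the use of strand, the sources used here give nothing. The deposited table holds FPKM per gene and library computed by the authors, per the file headers. A 0 is written there as 0.0001 and was set back to 0. The authors' fold column is the ratio of mean FPKM (L-OHP+FUC over L-OHP), beside its log2 and an unadjusted p-value and q-value, all deposited by the authors.

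FPKM are not counts. Converted by the implied depth, between 32.1% and 36.3% of low values fell within 0.03 of a whole read, too few to recover counts for a count test. limma 3.58.1 (R 4.3.3) was fitted to log2(FPKM + 1) with group as the term and an intensity trend, for genes reaching 0.5 FPKM in 3 or more of 6 libraries. Tests were two-sided, with p-values adjusted by Benjamini-Hochberg and a threshold of 0.05. The log2(FPKM + 1) scale understates the change of low genes. The fit was tested on simulated data with changes planted only in genes above a level that most members do not reach. The planted changes were also larger than those of most members, so that test says little about them. The members and lists were chosen with earlier results of these data known. Named were all members, a few genes set by name, the 5 genes most like Phgdh, and the genes of smallest p of each hand-made list (4 where 3 or more passed, otherwise 2). Alternatives were the pseudocount, filter, scaling, GC and length correction, intensity trend, replicate block and each library left out. Positions and overlaps come from GENCODE M21, which held 99.5% of gene IDs. A result of the folate list is not reported here.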

Additional observations from a re-analysis of the deposited data

How the results depend on the processing

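Counts of members are given for orientation only, since the members were chosen on this contrast, and 5 of them remained for testing with a mean of at least 5 FPKM. Against 3262 genes, 4 members and 44 other pathway genes called, leaving out each library in turn gave 1101 to 3377 genes, 2 to 6 members and 20 to 47 pathway genes. Without a filter on low values 2081 genes and 28 pathway genes were called, and with a mean of at least 5 FPKM 1720 genes were. Median-ratio rescaling and quantile normalization each gave 6 members, adding Psph and Mthfd1. With the replicate number as a block, 2316 genes, 3 members (Mthfd1l lost) and 31 pathway genes were called. The block together with the GC and length correction gave 1465 genes and 23 pathway genes. It added Psat1 and lost Mthfd1l among the members, and ended the calls of Ahcy (adjusted p = 0.0508), Aldoa (0.0576) and Myc (0.0687). Of the genes named in the text, the block alone ended the calls of Aldh1l1 (adjusted p = 0.064), Slc46a1 (0.0704), Gclc (0.0571), Slc7a11 (0.0761), Impdh2 (0.0512) and Adssl1 (0.066) and brought Slc25a32 past the threshold (0.0478). The replicate numbers showed no pairing in the values. Same-numbered libraries deviated from their group means with correlations of -0.0365, -0.0711 and 0.0827, and not every library correlated best with its own number. With so few libraries per group, these correlations cannot exclude a paired design. The difference of Atf4 ran from -0.02 (without L-OHP replicate 3, a reversal) to 0.41 (without L-OHP replicate 1). The cause of these shifts was not tested. With an L-OHP+FUC or L-OHP library left out, a group has 2 samples. The FPKM carry no counting error, and depth limits Aldh1l2 most, at 1.62 to 12.2 implied fragments per library.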
